A study of Homo sapiens with 6 samples.

Results

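The autophagy and lysosome genes described here were 38 genes of the 62443 in the table, taken from a list of names and found through their Ensembl identifiers, all 38 of which carried the listed symbol. They form 2 groups that were described apart, 20 genes of the autophagy machinery with the transcription factor TFEB, and 18 genes of lysosomal enzymes and membrane proteins. RNA was sequenced from HGC-27, an established human gastric cancer cell line, in 3 Con samples and 3 samples treated with GLUP, and all 6 libraries share this line. GLUP is a cyclized, C-terminally amidated peptide built on the TEAD4-binding motif of VGLL4, a cofactor of the TEAD transcription factors. The study's results call the ring a disulfide, whereas its methods describe a chemical cross-link from the head to a side chain. Con carries no treatment in the labels, whereas the study's methods describe a negative control that received the buffer in which the peptide is kept. A single cell line was used, and nothing names separate cultures for the 3 samples of a group beyond a general statement of biological replicates, so p-values measure the spread between these samples, which may be technical.

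Autophagy is the process by which a cell wraps part of its cytoplasm in a double membrane, the autophagosome, and delivers it to the lysosome. A kinase complex around ULK1 starts it, a lipid kinase complex with BECN1 marks the membrane, and a pair of ubiquitin-like conjugation systems attaches ATG8 proteins such as MAP1LC3B to the membrane, where they hold cargo receptors such as SQSTM1. The lysosome is the acidic compartment whose proteases, glycosidases and lipid transfer proteins break down what arrives there. TFEB and its relatives switch on many lysosomal genes by binding promoters that hold the letters CACGTG.

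Expression is given in FPKM, a fragment count corrected for gene length and for library size, so levels of different genes are compared per length. Totals ranged from 909735 to 965147 FPKM per library, between 20061 and 21498 genes were above 0, and mitochondrial genes took 21.9% to 29.7% of the total. Whole reads could not be recovered from the values, so the depth behind each value is unknown. Of 3 mesenchymal markers, 2 reached a mean of 1 FPKM, VIM at 222 to 387 FPKM and FN1 at 0.643 to 3.25 FPKM, while CDH2 did not exceed 0.0508 FPKM and was listed at 0 in all GLUP libraries. Their summed level was 336.8 to 390.5 FPKM in Con and 222.8 to 336.6 FPKM in GLUP. The epithelial markers EPCAM and CDH1 did not exceed 0.124 FPKM in any library. The summed level of 5 epithelial markers, 3 of them at a mean of at least 1 FPKM, was 2.97 to 3.70 FPKM in Con and 5.18 to 6.06 FPKM in GLUP, and the part of these differences in the results was not tested. None of 6 macrophage markers, which would mark cells rich in lysosomes, reached a mean of 1 FPKM, and CD68 and TYROBP were at or near 0 throughout. Of 6 fibroblast markers 4 reached it, with a summed level of 87.8 to 124.8 FPKM in Con and 92.4 to 123.3 FPKM in GLUP. In bulk RNA, fewer cells of a kind and less RNA per cell cannot be told apart.

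With GLUP, transcripts of the autophagy machinery were mostly lower and those of the lysosome more often higher than lower, but no gene of either group passed the test. Differences are between group means of log2(FPKM + 1) and are called log2 differences, and a gene was tested with limma where its mean over the 6 libraries was at least 1 FPKM. Of the 20 machinery genes, 14 were tested, and 3 of these were higher and 11 lower in GLUP, with a median log2 difference of -0.37 and a range of -0.83 to 0.66. Of the 18 lysosome genes, 14 were tested, and 8 were higher and 6 lower, with a median of 0.36 and a range of -0.88 to 1.15. Over all 7406 genes tested, the median log2 difference was -0.23 and 65.5% were lower, so the scale itself leaned downwards. Relative to that median, 5 machinery genes were higher and 9 lower, against 12 higher and 2 lower in the lysosome group. When libraries were scaled by a trimmed mean of log ratios, the median of all genes moved to -0.01, the machinery split became 6 higher and 8 lower, and the lysosome split 12 higher and 2 lower.

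At an adjusted p under 0.05 (limma, Benjamini-Hochberg over all genes tested), 0 of the 28 tested members were called, and so were 0 of all genes, a background of 0%. The smallest adjusted p of a member was 0.194. At an unadjusted p under 0.05, 1 machinery gene, GABARAPL1, and 3 lysosome genes, GRN, PSAP and NPC2, were reached, beside 21.7% of all genes tested (4.46% higher and 17.2% lower). The 3 GLUP values did not overlap with the 3 Con values in 7 members, against 30.3% of all genes tested. BECN1, ATG3 and GABARAPL1 in the machinery and NPC2 in the lysosome were lower without overlap (22.7% of all genes), and GAA, PSAP and GRN were higher without overlap (7.55% of all genes). For each of the 7 an exact two-sided permutation test gave p = 0.1, the smallest that 3 against 3 samples allow. Any gene without overlap gives this p, so it adds nothing to the lack of overlap.

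**Figure D1:**
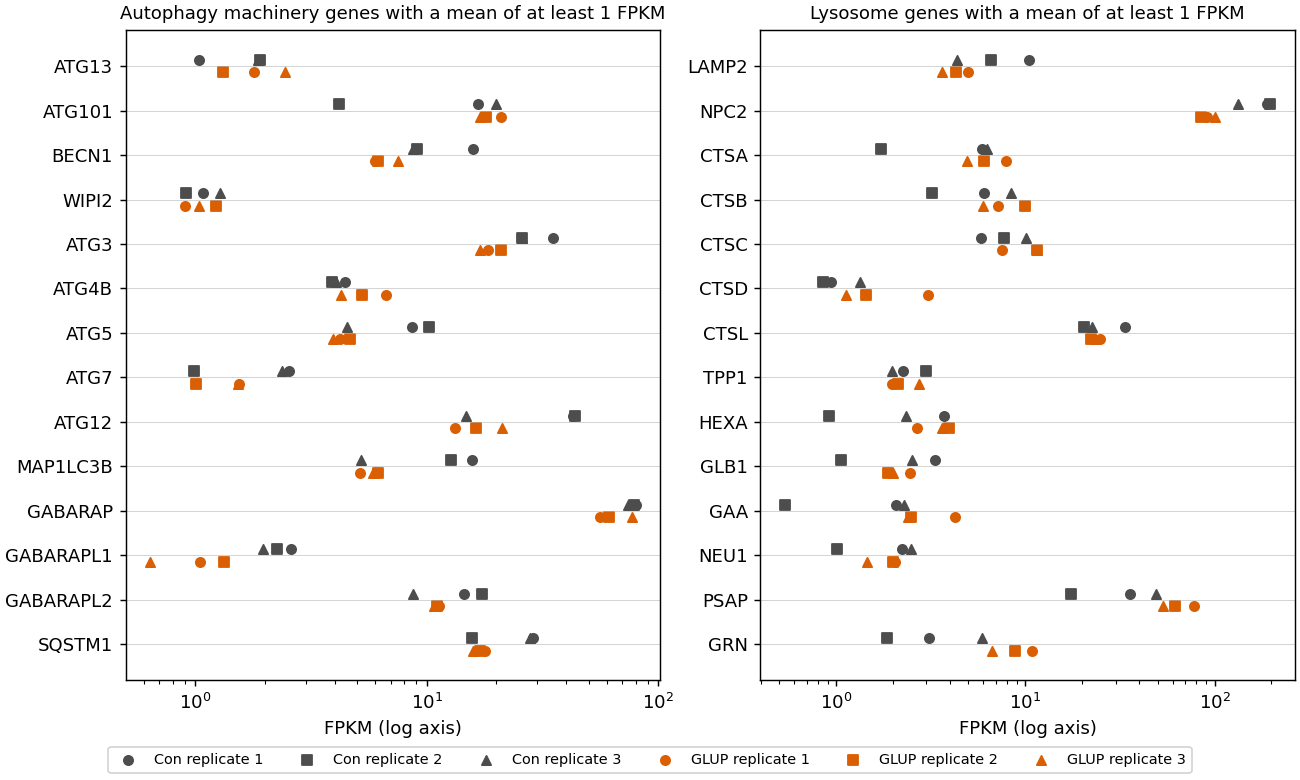
Each point is the FPKM of a gene in a library, on a log axis, for the 14 machinery genes (left) and the 14 lysosome genes (right) with a mean of at least 1 FPKM, with Con in grey above GLUP in orange and the marker shape giving the replicate number. NPC2 in GLUP lies wholly to the left of Con, PSAP and GRN wholly to the right, and Con replicate 2 is the leftmost point for many lysosome genes.

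Among the genes that start autophagy, none of the initiation kinase complex differed beyond its spread. ULK1, the kinase itself, was barely detected, at 0.108, 0.0132 and 0.0824 FPKM in the Con libraries, in order of replicate number, and 0.0918, 0.150 and 0.0631 FPKM in the GLUP libraries. Later values follow this order. The groups overlapped, and ULK1 was under the minimum for testing. ATG13 and ATG101, which bind the kinase and stabilise each other, were detected, ATG13 between 1.04 and 2.44 FPKM and ATG101 between 4.17 and 21.0 FPKM. ATG13 shares 329 exonic bases on the opposite strand with HARBI1, which had a mean of 1.13 FPKM. ATG101 had a log2 difference of 0.66 ± 0.49 (SE; limma adjusted p = 0.402), but its low Con mean came from Con replicate 2 alone, at 4.17 FPKM against 16.7 and 19.96 FPKM in the other Con libraries. Without that library its log2 difference was 0.02.

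BECN1, the scaffold of the lipid kinase complex, was lower in GLUP in every pair of libraries. It was at 15.8, 9.08 and 8.76 FPKM in Con (mean 11.2 ± 3.999, SD, n = 3) and 6.01, 6.18 and 7.501 FPKM in GLUP (mean 6.56 ± 0.817, SD, n = 3). The Con spread was set by Con replicate 1, which was the highest, and the log2 difference of -0.65 ± 0.31 (SE) had a limma adjusted p of 0.246. Without Con replicate 1 it was -0.40. BECN1 shares 300 exonic bases with PSME3 on the opposite strand, and since counting by strand is not stated, the reads of such pairs cannot be told apart. PSME3 was also lower without overlap, at 22.8, 17.7 and 8.97 FPKM in Con and 5.50, 6.34 and 6.39 FPKM in GLUP. ATG14, the subunit that sends this complex to autophagy, was between 0.190 and 0.672 FPKM and was not tested. Of the genes that supply and shape the membrane, WIPI2, which reads the lipid mark, was at 0.9003 to 1.28 FPKM with a log2 difference of -0.02 ± 0.20 (SE; limma adjusted p = 0.948), and its relative WIPI1 was between 0.438 and 1.59 FPKM. ATG9A, the membrane protein that brings lipid, was listed at 0 in Con replicates 1 and 2 and at 1.18 FPKM in Con replicate 3, against 1.17, 0.446 and 1.15 FPKM in GLUP. It shares 1833 exonic bases on the same strand with ENSG00000284820, which had a mean of 0.715 FPKM, so its values are uncertain. WIPI1 and ATG9A were under the minimum as well.

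The conjugation enzymes, which attach ATG8 proteins to lipid, were lower in 4 of the 5 genes tested, with a median log2 difference of -0.58. ATG3, the enzyme of the last step, was at 35.0, 25.7 and 25.8 FPKM in Con (mean 28.8 ± 5.33, SD, n = 3) and 18.5, 20.9 and 17.1 FPKM in GLUP (mean 18.8 ± 1.94, SD, n = 3). The groups did not overlap, with a log2 difference of -0.58 ± 0.29 (SE) and a limma adjusted p of 0.257. ATG12 and ATG5, the ubiquitin-like protein and the partner it is joined to, had the same shape as each other. ATG12 was at 42.9, 43.9 and 14.8 FPKM in Con and 13.3, 16.4 and 21.1 FPKM in GLUP. ATG5 was at 8.63, 10.2 and 4.53 FPKM in Con and 4.23, 4.66 and 3.94 FPKM in GLUP. In both, Con replicates 1 and 2 stood above all other libraries, and Con replicate 3 lay among the GLUP values. Their log2 differences were -0.83 ± 0.43 (SE; limma adjusted p = 0.267) for ATG12 and -0.68 ± 0.32 (SE; limma adjusted p = 0.245) for ATG5. ATG12 shares 185 exonic bases with AP3S1 on the opposite strand.

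ATG7, which activates both ubiquitin-like systems, was at 2.55, 0.991 and 2.38 FPKM in Con (mean 1.98 ± 0.858, SD, n = 3) and 1.55, 1.01 and 1.53 FPKM in GLUP (mean 1.36 ± 0.306, SD, n = 3). Con replicate 2 was at the level of the lowest GLUP library, so the groups overlapped, with a log2 difference of -0.29 ± 0.28 (SE) and a limma adjusted p of 0.509. Leaving out Con replicate 1 gave -0.14, and leaving out Con replicate 2 gave -0.56. ATG7 overlaps VGLL4, from which GLUP was designed, in 1597 exonic bases on the opposite strand (chromosome 3, GRCh37). VGLL4 itself was at 0.676, 0.733 and 1.23 FPKM in Con and 1.91, 1.54 and 2.03 FPKM in GLUP, a log2 difference of 0.60 ± 0.22 (SE; limma adjusted p = 0.198), so that the overlapping genes lay on opposite sides of 0. ATG4B, the protease that trims ATG8 proteins, was between 3.90 and 6.67 FPKM with a log2 difference of 0.30 ± 0.27 (SE; limma adjusted p = 0.479), and ATG16L1, the third part of the ATG12 and ATG5 complex, was between 0.166 and 0.891 FPKM and not tested.

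All 4 ATG8 genes among the members had lower means in GLUP, with log2 differences from -0.74 to -0.22. GABARAP and GABARAPL2, however, turned to 0.04 and 0.06 under scaling by a trimmed mean of log ratios. GABARAP was the most abundant machinery gene, at 73.9 to 79.8 FPKM in Con and 56.0 to 77.4 FPKM in GLUP. MAP1LC3B, the usual marker of autophagosomes, was at 15.7, 12.7 and 5.21 FPKM in Con (mean 11.2 ± 5.40, SD, n = 3) and 5.17, 6.16 and 5.86 FPKM in GLUP (mean 5.73 ± 0.506, SD, n = 3). As for ATG12, the higher Con mean came from replicates 1 and 2, while Con replicate 3 lay within the GLUP values. Its log2 difference was -0.74 ± 0.38 (SE; limma adjusted p = 0.264) and -0.46 without Con replicate 1, and its near-identical copy MAP1LC3B2, with which reads may be split, was at 1.19 to 2.21 FPKM. GABARAPL1 (ENSG00000139112, chromosome 12, 10365057 to 10375727, plus strand, GRCh37) was the machinery gene with the smallest p. It was at 2.59, 2.26 and 1.96 FPKM in Con (mean 2.27 ± 0.315, SD, n = 3) and 1.05, 1.33 and 0.638 FPKM in GLUP (mean 1.01 ± 0.348, SD, n = 3). All 3 GLUP libraries were below all 3 Con libraries, and the log2 difference was -0.72 ± 0.23 (SE), with a limma p of 0.0123 and an adjusted p of 0.194. The processed copy GABARAPL3 was listed at 0 in every library. GABARAPL2 was between 8.77 and 17.3 FPKM, with both ends in Con.

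SQSTM1, the p62 cargo receptor, was at 28.8, 15.7 and 28.02 FPKM in Con (mean 24.2 ± 7.34, SD, n = 3) and 17.8, 17.1 and 15.9 FPKM in GLUP (mean 16.9 ± 0.967, SD, n = 3). Con replicate 2 was below all GLUP libraries, and the other Con libraries were above them. The log2 difference was -0.45 ± 0.32 (SE; limma adjusted p = 0.386) and -0.72 without Con replicate 2. SQSTM1 shares 1582 exonic bases with MRNIP on the opposite strand. TFEB was hardly detected, at 0.0597, 0 and 0.142 FPKM in Con and 0.140, 0.143 and 0.166 FPKM in GLUP, and it was not tested.

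Turning to the lysosome, of the 3 membrane proteins among the members, LAMP2 alone reached the minimum for testing. LAMP1, one of the main glycoproteins of the lysosomal membrane, was at 0.247, 0.412 and 0.106 FPKM in Con and 0.123, 0.211 and 0.120 FPKM in GLUP. Its mean exceeded only 36.8% of the 16047 protein-coding genes above 0, and it was not tested. LAMP2 was at 10.5, 6.56 and 4.37 FPKM in Con (mean 7.14 ± 3.10, SD, n = 3) and 4.97, 4.32 and 3.61 FPKM in GLUP (mean 4.30 ± 0.683, SD, n = 3). Con replicates 1 and 2 were highest and replicate 3 fell among the GLUP libraries, with a log2 difference of -0.56 ± 0.33 (SE) and a limma adjusted p of 0.309. Without Con replicate 1 it was -0.27. MCOLN1, a calcium channel of the lysosome, was between 0.422 and 0.806 FPKM and not tested.

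Promoters were searched for the letters CACGTG, which read the same on both strands. The windows ran from 250 bases before to 50 bases after each start, from RefSeq on GRCh38.p14, and 34 of the 38 members matched an entry, of which the first listed for a gene was used. CACGTG was present in 2030 of 27305 promoters (7.43%), in 2 of the 20 machinery promoters (ATG3 and ATG14) and in 6 of the 14 lysosome promoters (LAMP1, GAA, MCOLN1, CTSA, CTSD and NEU1). The 4 lysosome promoters with more than 1 copy are printed here, to show where the letters stand, for the 250 bases before the start, on the plus strand, with CACGTG in capitals. The LAMP1 window, chr13:113296989-113297238, holds 5 whole copies and the opening letter of another. The other windows hold 2 copies each and are chr17:80101331-80101580 for GAA, chr19:7522374-7522623 for MCOLN1 and chr20:45891085-45891334 for CTSA.
LAMP1: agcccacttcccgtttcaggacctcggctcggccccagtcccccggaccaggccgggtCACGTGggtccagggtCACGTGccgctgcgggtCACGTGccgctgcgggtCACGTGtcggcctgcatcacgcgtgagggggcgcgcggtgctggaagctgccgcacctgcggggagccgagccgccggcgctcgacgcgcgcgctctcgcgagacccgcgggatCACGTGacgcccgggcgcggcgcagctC
GAA: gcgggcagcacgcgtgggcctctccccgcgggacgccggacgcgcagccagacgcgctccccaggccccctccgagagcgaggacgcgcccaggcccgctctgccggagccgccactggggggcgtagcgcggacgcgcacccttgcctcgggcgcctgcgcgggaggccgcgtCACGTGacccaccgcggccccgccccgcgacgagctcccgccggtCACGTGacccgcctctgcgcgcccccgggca
MCOLN1: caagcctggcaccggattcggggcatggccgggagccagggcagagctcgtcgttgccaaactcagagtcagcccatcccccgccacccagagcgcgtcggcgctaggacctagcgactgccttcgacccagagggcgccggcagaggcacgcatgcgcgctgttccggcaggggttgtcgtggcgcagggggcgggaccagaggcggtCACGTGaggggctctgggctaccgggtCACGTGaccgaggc
CTSA: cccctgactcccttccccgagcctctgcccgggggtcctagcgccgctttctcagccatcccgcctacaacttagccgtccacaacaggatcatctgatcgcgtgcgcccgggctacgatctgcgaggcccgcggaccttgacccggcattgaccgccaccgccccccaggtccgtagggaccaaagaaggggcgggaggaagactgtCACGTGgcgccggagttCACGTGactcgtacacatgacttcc
Of the genes with these 4 promoters, LAMP1 and MCOLN1 were under the minimum for testing, GAA was higher in GLUP without overlap, and CTSA overlapped between the groups. The machinery promoter of ATG3 also held 2 copies in the window searched, and ATG3 was lower in GLUP without overlap. Of the genes with 1 copy, CTSD and NEU1 overlapped between the groups and ATG14 was not tested. CACGTG was not in the windows of GABARAPL1, GRN or NPC2, which says only that these letters are not in that stretch, and PSAP was among the members with no entry.

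NPC2 (ENSG00000119655, chromosome 14, 74942895 to 74960880, minus strand, GRCh37), the soluble protein that lifts cholesterol out of the lysosome, was the most abundant member of either group and the lysosome gene with the largest lower mean. It was at 190.0, 197 and 132 FPKM in Con (mean 173 ± 35.5, SD, n = 3) and 91.7, 85.0 and 101 FPKM in GLUP (mean 92.6 ± 8.10, SD, n = 3). Every GLUP library was below every Con library, the closest being GLUP replicate 3 and Con replicate 3. The log2 difference was -0.88 ± 0.29 (SE), with a limma p of 0.0139 and an adjusted p of 0.197. NPC2 shares 103 exonic bases with ISCA2 on the opposite strand, which was at 35.7, 25.04 and 13.4 FPKM in Con and 4.44, 6.59 and 6.71 FPKM in GLUP. NPC1, the membrane protein to which NPC2 hands its cholesterol, was at 0.869, 0.416 and 0.961 FPKM in Con and 1.26, 1.37 and 0.696 FPKM in GLUP. The groups overlapped, and NPC1 was not tested. NPC1 shares 619 exonic bases on the opposite strand with RMC1, which had a mean of 1.11 FPKM.

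The lysosomal proteases did not differ beyond their spread, with 4 of the 6 genes tested higher in GLUP and a median log2 difference of 0.36, which was 0.07 without Con replicate 2. CTSB, a cysteine protease, was at 6.05, 3.22 and 8.39 FPKM in Con (mean 5.89 ± 2.59, SD, n = 3) and 7.13, 10.0 and 5.97 FPKM in GLUP (mean 7.70 ± 2.07, SD, n = 3). Its groups overlapped, and the log2 difference of 0.39 ± 0.35 (SE) had a limma adjusted p of 0.495. It was 0.07 without Con replicate 2 and 0.20 without GLUP replicate 2. CTSD, the main aspartic protease, was at 0.933, 0.856 and 1.33 FPKM in Con (mean 1.04 ± 0.257, SD, n = 3) and 3.07, 1.43 and 1.13 FPKM in GLUP (mean 1.88 ± 1.04, SD, n = 3). Most of the higher GLUP mean came from GLUP replicate 1, and the log2 difference of 0.44 ± 0.28 (SE; limma adjusted p = 0.332) was 0.17 without that library. CTSL, another cysteine protease and the most abundant of these, was at 33.8, 20.5 and 22.4 FPKM in Con (mean 25.6 ± 7.20, SD, n = 3) and 24.7, 22.1 and 23.5 FPKM in GLUP (mean 23.4 ± 1.30, SD, n = 3). Apart from Con replicate 1 its libraries lay close together, with a log2 difference of -0.09 ± 0.30 (SE; limma adjusted p = 0.866).

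The other proteases were CTSC, a dipeptidyl peptidase that activates other proteases, between 5.82 and 11.6 FPKM, CTSA, which also protects GLB1 and NEU1, between 1.72 and 7.90 FPKM, and TPP1, a tripeptidyl peptidase, between 1.97 and 2.995 FPKM. Their log2 differences were 0.34, 0.48 and -0.05. That of CTSC was 0.17 without Con replicate 1, and that of CTSA was 0.02 without Con replicate 2. CTSA shares 329 exonic bases on the opposite strand with PLTP, which had a mean of 4.57 FPKM. CTSZ was at 0.0512 FPKM in Con replicate 1 and listed at 0 in the other 5 libraries. It shares 6136 exonic bases with NELFCD, which had a mean of 5.94 FPKM, so its level is uncertain.

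The 4 glycosidases were all low in Con replicate 2. HEXA, which trims gangliosides, was at 0.918 FPKM in that library and between 2.34 and 3.93 FPKM in the others, and GLB1, the lysosomal beta-galactosidase, at 1.05 FPKM against 1.87 to 3.31 FPKM. NEU1, which removes sialic acid, was at 1.01 FPKM against 1.46 to 2.47 FPKM. GAA, the enzyme that degrades glycogen in the lysosome, was at 2.08, 0.534 and 2.28 FPKM in Con (mean 1.63 ± 0.955, SD, n = 3) and 4.22, 2.50 and 2.39 FPKM in GLUP (mean 3.03 ± 1.03, SD, n = 3). The groups did not overlap, but GLUP replicate 3 and Con replicate 3 were close. The log2 difference of GAA was 0.67 ± 0.34 (SE; limma adjusted p = 0.263) and 0.32 without Con replicate 2. For HEXA, GLB1 and NEU1 the log2 differences were 0.49, -0.02 and -0.00, and without Con replicate 2 they were 0.14, -0.33 and -0.25.

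The largest higher means of the lysosome group were those of its secreted precursors, which reach the lysosome as longer proteins and are cut there. GRN (ENSG00000030582, chromosome 17, 42422614 to 42430474, plus strand, GRCh37), progranulin, was at 3.10, 1.85 and 5.93 FPKM in Con (mean 3.63 ± 2.09, SD, n = 3) and 10.8, 8.77 and 6.67 FPKM in GLUP (mean 8.75 ± 2.07, SD, n = 3). All GLUP libraries were above all Con libraries, with Con replicate 3 nearest to them. Its log2 difference was 1.15 ± 0.36 (SE), with a limma p of 0.01 and an adjusted p of 0.194. PSAP (ENSG00000197746, chromosome 10, 73576055 to 73611008, minus strand, GRCh37), the precursor of the saposins that present sphingolipids to their hydrolases, was at 35.6, 17.5 and 49.1 FPKM in Con (mean 34.1 ± 15.9, SD, n = 3) and 78.1, 61.7 and 53.2 FPKM in GLUP (mean 64.3 ± 12.7, SD, n = 3). Con replicate 2 was again the lowest and Con replicate 3 the nearest to GLUP. The log2 difference was 1.00 ± 0.40 (SE), with a limma p of 0.031 and an adjusted p of 0.203, and without Con replicate 2 it was 0.59.

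**Figure D2:**
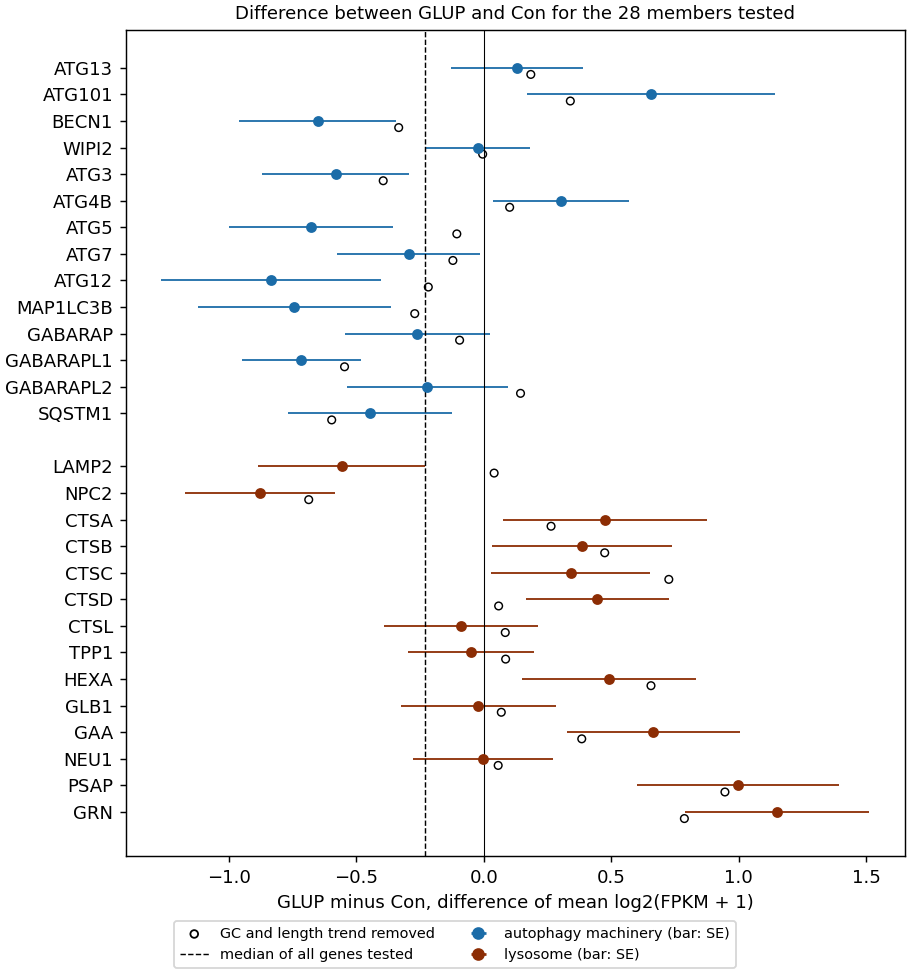
Filled points give the difference between GLUP and Con in mean log2(FPKM + 1) for each of the 28 members tested, with bars of 1 standard error, machinery in blue and lysosome in brown, open circles give the same after a trend with GC content and length was removed, and the dashed line is the median of all genes tested. The points run from -0.88 for NPC2 to 1.15 for GRN, and for LAMP2, CTSL, GABARAPL2, TPP1, GLB1 and NEU1 the open circle lies on the other side of 0.

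The individual libraries did not weigh equally on the 2 groups. Con replicate 2 was the lowest of the 6 libraries for 10 of the 14 tested lysosome genes (71.4%), compared with 4 of the 14 machinery genes (28.6%) and 28.8% of all genes tested. In the further lists described below, it was the lowest for 54.2% of other lysosomal hydrolases and membrane proteins and 60% of sorting genes. The shares were 33.3% for the proton pump, 21.1% for other autophagy genes and 20% for nutrient sensing. Con replicate 1 was the highest for 7 of the 14 machinery genes (50%), against 27.7% of all genes. The median level of the machinery genes, set against the median of all genes tested in the same library on the log2(FPKM + 1) scale, was 1.47, 0.97 and 0.77 in Con and 0.72, 0.73 and 0.82 in GLUP. That of the lysosome genes was -0.04, -0.69 and 0.42 in Con and 0.64, 0.50 and 0.27 in GLUP. Thus Con replicate 3 lay among the GLUP libraries by both medians, and Con replicates 1 and 2 lay apart from GLUP in opposite directions for the 2 groups. Summed FPKM of the tested machinery genes was 269.7, 227.1 and 201.4 in Con and 165.2, 172.2 and 186.4 in GLUP, without overlap. GABARAP was the largest part of this sum, and 22.7% of all single genes tested were lower without overlap. For the lysosome genes, whose sum is mostly NPC2 and PSAP, summed FPKM was 305.3, 263.5 and 251.9 in Con and 249.3, 223.4 and 223.7 in GLUP. The lysosome sum was thus lower in GLUP where most single genes were higher.

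**Figure D3:**
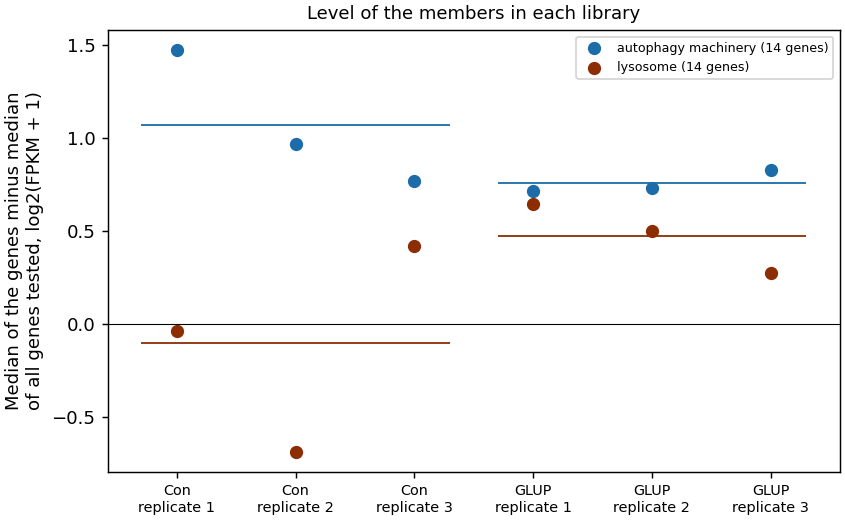
For each library, on the horizontal axis, points give the median log2(FPKM + 1) of the 14 tested machinery genes (blue) and the 14 tested lysosome genes (brown) minus the median of all genes tested in that library, and the lines are the group means. Con replicate 3 sits at 0.77 and 0.42, within the GLUP values, while Con replicate 2 sits at 0.97 and -0.69.

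Without Con replicate 3, 6 members were called at an adjusted p under 0.05 by limma, beside 18.5% of all genes tested (2.2% higher and 16.3% lower), a share close to that of the members. In the machinery these were ATG5, ATG12 and MAP1LC3B, with log2 differences of -0.98, -1.33 and -1.17 and adjusted p of 0.0361, 0.0314 and 0.0304. In the lysosome they were NPC2, at -1.06 with an adjusted p of 0.0365, and PSAP and GRN, at 1.31 and 1.49 with adjusted p of 0.0495 and 0.0292. Over the other processing settings the limma adjusted p of each of these 6 genes reached at least 0.589, and up to 0.818 for ATG5. Without Con replicate 2 the median log2 difference of the lysosome genes was 0.07 and that of the machinery -0.52. The direction of both medians was thus the same with either library left out, and the size of the lysosome median was not.

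The differences of the members followed the GC content of their transcripts. Of the 12 tested members under 50% GC, 11 were lower in GLUP, and of the 16 at or over 50% GC, 6 were. Spearman's rank correlation between GC content and the log2 difference was 0.764 over the 28 members, 0.780 over the machinery, 0.741 over the lysosome genes and 0.549 over 7388 genes tested with a known GC content. These are descriptions across genes of the same 6 libraries, which are not independent replicates. The median GC content was 48.9% in the machinery, 51.2% in the lysosome genes and 47.2% in all genes. With the trend of GC content and length removed from each library, the median log2 difference was -0.11 for the machinery, with 4 genes higher and 10 lower, and 0.17 for the lysosome genes, with 13 higher and 1 lower. The same removal moved the median of all genes tested from -0.23 to 0.01, with 3749 higher and 3639 lower. The machinery median thus moved up with that of all genes, whereas the lysosome median moved down, against it. The distance between the machinery and lysosome medians was smaller after the removal, and NPC2 was the remaining lower lysosome gene.

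Single genes moved by different amounts with this removal. ATG12, ATG5 and MAP1LC3B went to log2 differences of -0.22, -0.11 and -0.27, and LAMP2 to 0.04. GABARAPL1 was at -0.55, NPC2 at -0.69, PSAP at 0.95 and GRN at 0.79, with limma p of 0.0201, 0.00833, 0.0126 and 0.00642 but no adjusted p under 0.05. With this removal, 18% of the 7388 genes had an unadjusted limma p under 0.05. SQSTM1, with 57.1% GC, went from -0.45 to -0.60, with a limma p of 0.0145, and CTSC, with 44.6% GC, from 0.34 to 0.73, with a limma p of 0.0533.

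**Figure D4:**
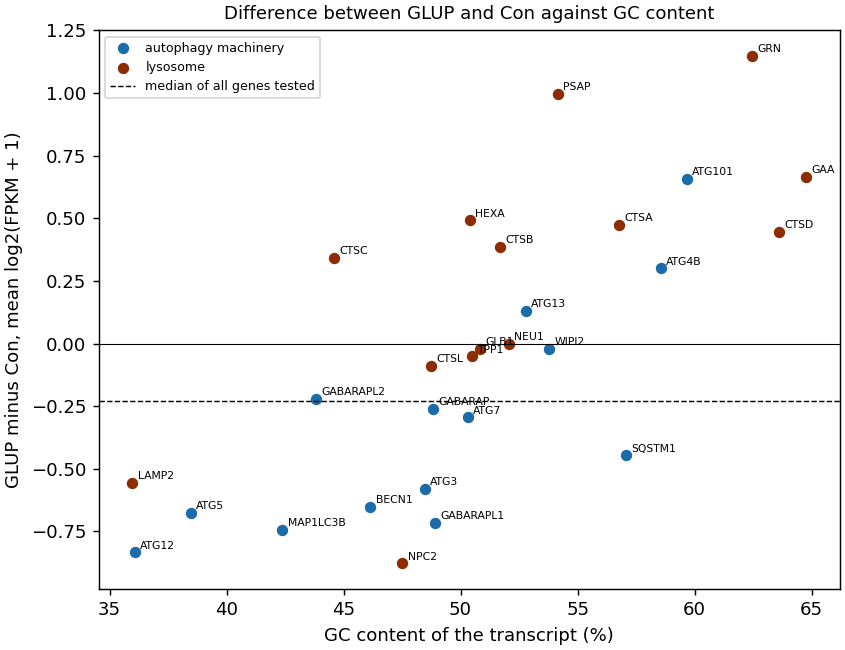
Each point is a tested member, with the GC content of its transcript in percent on the horizontal axis and the difference between GLUP and Con in mean log2(FPKM + 1) on the vertical axis, machinery in blue and lysosome in brown, and the dashed line is the median of all genes tested. Points run from ATG12 and LAMP2 at the lower left to GRN and GAA at the upper right, with NPC2 below and PSAP and CTSC above the other genes of similar GC content.

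Ratios of genes within a library do not depend on the scaling of that library, and 2 were taken, chosen after the values were seen and given as descriptions. GABARAPL1 and GABARAP, sister genes with nearly the same GC content of 48.9% and 48.8%, gave 3.24%, 2.88% and 2.65% in Con for the first as a percent of the second, and 1.88%, 2.16% and 0.824% in GLUP, without overlap, as for GABARAPL1 itself. MAP1LC3B as a percent of GABARAP was 19.7%, 16.2% and 7.05% in Con and 9.24%, 10.0% and 7.57% in GLUP, where Con replicate 3 was the lowest of all.

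Further genes of these pathways were taken from 5 lists with 125 genes in all, of which 78 were tested. None was called at an adjusted p under 0.05 by limma, and the median log2 difference was -0.24, close to that of all genes. At an unadjusted p under 0.05, 3 were higher and 15 lower, shares close to the 4.46% higher and 17.2% lower of all genes tested. Other autophagy genes, such as receptors and fusion factors, had 3 higher and 16 lower of 19 tested, with a median of -0.34. Subunits of the proton pump, which acidifies the lysosome, had 5 higher and 10 lower of 15, with a median of -0.23. Other lysosomal hydrolases and membrane proteins had 10 higher and 14 lower of 24, with a median of -0.03, beside 8 higher and 6 lower among the 14 lysosome genes described above. Sorting receptors and enzymes that route proteins to the lysosome had 3 higher and 2 lower of 5, with a median of 0.15. Genes for nutrient sensing at the lysosome had 5 higher and 10 lower of 15, with a median of -0.27.

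The smallest p of these lists belonged to RRAGC, AGA and TMEM192, each with a limma adjusted p of 0.194. RRAGC, a small GTPase that recruits the growth kinase mTORC1 to the lysosome, was at 5.36, 7.35 and 3.14 FPKM in Con and 1.18, 1.14 and 1.20 FPKM in GLUP, with a log2 difference of -1.48 ± 0.30 (SE). AGA, which cleaves sugars from asparagine, was at 15.3, 12.9 and 8.62 FPKM in Con and 4.57, 5.22 and 4.26 FPKM in GLUP, with a log2 difference of -1.20 ± 0.30 (SE). TMEM192, a protein of the lysosomal membrane, was at 1.63, 1.25 and 0.831 FPKM in Con and 3.44, 2.60 and 3.36 FPKM in GLUP, with a log2 difference of 0.89 ± 0.25 (SE). In all 3, which were picked by their p, the groups did not overlap. With these included, the groups did not overlap in 30 of the 78 genes tested from these lists, 8 higher and 22 lower. That share was above the 30.3% of all genes tested (7.55% higher and 22.7% lower). In RRAGC, AGA and TMEM192, Con replicate 3 was the lowest Con library, nearest to GLUP for RRAGC and AGA and farthest from it for TMEM192.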

How the data were processed

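Total RNA of 3 Con and 3 GLUP samples of HGC-27 was sequenced, and samples were grouped by their titles. The authors deposited FPKM values in a single table, whose unit is given by its name. The processing notes name HISAT2, Cufflinks, RSEM and GRCh38.p10 with no roles or versions, while 53057 of the 62492 row identifiers carry the suffix of an annotation lifted to GRCh37. The 49 rows for chromosome Y copies, all 0, were added to the X copies (62443 genes left). Because FPKM is scaled to a library total and holds no read counts, count tests were not used, and no interval for counting error can be given. The depth per sample is unknown.

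Symbols came from a table of Ensembl identifiers, and coordinates, overlaps, length and GC content from GENCODE release 44 lifted to GRCh37. Values were taken as log2(FPKM + 1). The 7406 genes whose mean reached 1 FPKM were fitted with limma 3.58.1 in R 4.3.3 (lmFit, eBayes with trend, two-sided, no covariates, Benjamini-Hochberg over all genes tested). For members below it, values come from a fit on 31444 genes without a minimum. The script was tested on simulated data. Members and lists were chosen with earlier results of these data known. Every member is named, in order of role, with each library's value for those with an unadjusted p under 0.05 and for ULK1, BECN1, ATG7, MAP1LC3B, SQSTM1, TFEB, LAMP1, LAMP2, CTSB, CTSD, CTSL and NPC1. Other members given in full (ATG9A, ATG3, ATG5, ATG12 and GAA) were chosen after their values were seen. VGLL4 is named because it overlaps ATG7, and of the further lists the 3 genes with the smallest p are named. Alternatives were other pseudocounts, minimums and scalings, eBayes without trend, a replicate block, removal of a loess trend (span 0.5) in GC content and length, and leaving out each library.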

Additional observations from a re-analysis of the deposited data

How the results depend on the processing

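Of 661 values of single members over 19 other settings, 596 kept their direction and side of the threshold, 6 passed the adjusted threshold of limma, and 59 over 11 genes changed direction, none of them past the threshold. The number of members with an adjusted p under 0.05 stayed at 0 in both groups except where a library was left out, which gave 0 to 3 in each group, with 3 in each without Con replicate 3 and 0 otherwise. At an unadjusted p under 0.05, the machinery count of 1 became 2 with a trimmed mean of log ratios, with quantile normalization, after the GC and length correction (also under the replicate block) and with no minimum, 3 with eBayes without trend and 0 at a minimum of 5 FPKM. When a library was left out it was lowest at 0, without GLUP replicate 3, and highest at 6, without Con replicate 3, with 5 without Con replicate 2. The share of all genes tested was then 12.6%, 40.3% and 18.8%, against 21.7% with all libraries. The lysosome count of 3 became 5 with values centred on the median, a setting added after the data were seen, and was lowest at 1, without GLUP replicate 2 (10.6% of all genes), and highest at 5, without Con replicate 3. In the other settings named, the share of all genes ran from 8.08% with no minimum to 24.7% at a minimum of 5 FPKM. The median log2 difference kept its sign throughout, at -0.58 to -0.11 for the machinery and 0.07 to 0.63 for the lysosome genes, where leaving out a library gave -0.52 to -0.27 and 0.07 to 0.53. The cause of these shifts was not tested.

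Replicate numbers did not pair the samples, since correlations of the deviations of same-numbered libraries were 0.13, -0.01 and -0.17. With the replicate block the adjusted counts were 0 and 0 and the unadjusted counts 1 and 3.

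Directions changed for 11 members, most of them near 0 in the reported values and LAMP2, GABARAP and GABARAPL2 farther from it. After the GC and length correction, with or without the replicate block, log2 differences were 0.14 for GABARAPL2, 0.041 for LAMP2, 0.084 for CTSL, 0.086 for TPP1, 0.069 for GLB1 and 0.057 for NEU1. Centring on the median gave 0.24 for WIPI2, 0.0037 for GABARAP, 0.044 for GABARAPL2, 0.17 for CTSL, 0.21 for TPP1, 0.24 for GLB1 and 0.26 for NEU1. A trimmed mean of log ratios gave WIPI2 0.13, GABARAP 0.037, GABARAPL2 0.060, CTSL 0.20, TPP1 0.16, GLB1 0.17 and NEU1 0.18, the upper quartile 0.12, 0.028, 0.051, 0.19, 0.15, 0.17 and 0.18 for the same genes, and quantile normalization 0.075 for WIPI2, 0.034 for GABARAPL2, 0.15 for CTSL, 0.15 for TPP1, 0.13 for GLB1 and 0.13 for NEU1. GLB1 and NEU1 were at 0.020 and 0.032 with a pseudocount of 0.01 and at 0.012 and 0.025 with a pseudocount of 0.1. Leaving out a library gave ATG13 -0.034 to 0.27, WIPI2 -0.084 to 0.042, ATG16L1 -0.0057 to 0.26, MCOLN1 -0.011 to 0.16, CTSL -0.23 to 0.12, TPP1 -0.15 to 0.070, GLB1 -0.33 to 0.21 and NEU1 -0.25 to 0.15.

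Depth is unknown, so what a low level can show is limited: ULK1, TFEB, LAMP1 and CTSZ, with means under 1 FPKM, were not tested. The median SD over genes on the log2 scale was 0.43 in Con and 0.20 in GLUP.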
